A study of Arabidopsis thaliana with 16 samples.

Results

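CA1 and CA2 are the genes of a pair of beta carbonic anhydrases of Arabidopsis thaliana, described here through 2 of the 22810 probe sets of the Affymetrix ATH1 array, written here as array and probe set: ATH1.259161_at for CA1 (AT3G01500) and ATH1.246596_at for CA2 (AT5G14740). They were chosen as zinc (Zn) enzymes of the leaf, and CA2 was also selected on its signals in 7-week plants, which differed in opposite directions in shoots and roots of Zn-deficient plants. Their changes under Zn deficiency are therefore given as a description, without a test. For CA1 and CA2, tests are given only for the hma2 hma4 mutant and for roots against shoots of the 21-day seedlings. For other genes the fit of the 7-week plants is also given.

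Carbonic anhydrases interconvert CO2 and bicarbonate with a Zn ion in the active site. CA1 is located in the chloroplast stroma and is among the most abundant soluble proteins of the leaf. It also binds salicylic acid and, together with CA4, takes part in the stomatal response to CO2. CA2 is a cytosolic enzyme of leaf cells. The RefSeq gene table lists both genes under these symbols.

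The 16 arrays form 8 groups of 2 from 2 experiments. In the 7-week experiment wild-type plants (WT) grew in hydroponic culture for 4 weeks in control conditions and then stood for 3 weeks in control or Zn-deficient (-Zn) medium. In the 21-day experiment WT and hma2 hma4 seedlings were raised on agar for 7 days, moved to vertical plates and kept there for 14 days, always with control medium. Shoots and roots were taken as separate samples in both. The hma2 hma4 double mutant lacks a pair of P-type ATPases that load Zn into the root xylem, and both of its groups and their controls received the same control medium. The labels name neither the WT accession, the mutant alleles nor whether plants were pooled. They also do not say whether replicates were separate cultures, so p-values cover only the spread among these arrays, possibly a technical one, and 2 arrays per group limit the precision of every value.

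Signals are on the authors' MAS5 scale, on which every array has the same trimmed mean. Array medians lay between 136.1 and 217 units, and replicate arrays correlated across probe sets with r from 0.952 to 0.978. A signal was taken as background where it did not exceed 52.2 units, the highest value of 3 Trpn control probe sets. The annotation gave 2 of 15 shoot marker loci and 2 of 11 root marker loci an unshared probe set. The summed signal of the shoot markers, RCA and LHCB4.1, lay between 33894 and 47926 on shoot arrays and between 279 and 1118 on root arrays. That of the root markers, PYK10 and EXPA7, lay between 5345 and 20015 on root arrays and between 141 and 4990 on shoot arrays.

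In control shoots both genes had high signals. CA1 had signals of 23216 and 17135 on the 2 control shoot arrays of the 7-week experiment and of 19789 and 19114 on the WT shoot arrays of the 21-day experiment. CA2 had signals of 16966 and 15142, and of 16635 and 16563, on the same arrays. The levels of the WT shoots of both experiments overlapped for each gene, although age and culture differed. In control roots the signals were at or near background: CA1 had 1.83 and 6.38 at 7 weeks and 57.2 and 2.15 at 21 days, and CA2 had 50.2 and 58.03, and 66.0 and 4.81. Of these 8 root signals, only those of 57.2, 58.03 and 66.0 exceeded background.

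**Figure D1:**
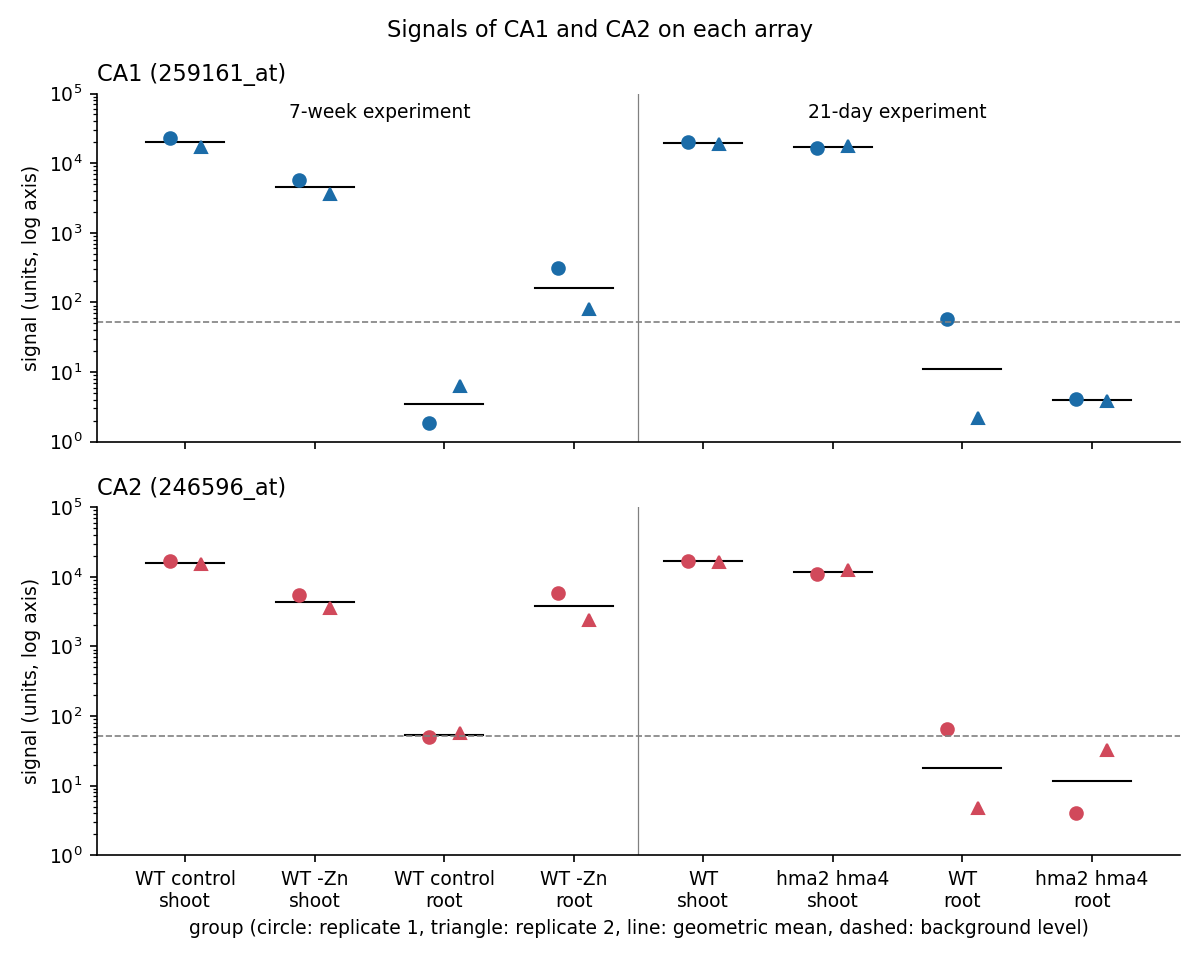
Signals (units, log axis) of CA1 (upper panel) and CA2 (lower panel) on the 16 arrays, by group. Circles are replicate 1, triangles replicate 2, black lines geometric means, and the dashed line is the background level of 52.2 units. All shoot arrays lie far above background, and among root groups only that of -Zn plants has both arrays above it for both genes.

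In shoots of Zn-deficient plants both genes were several-fold below their control level. CA1 had signals of 5793 and 3596, a mean of 4694 ± 1554 (SD, n = 2) against 20175 ± 4300 in controls. CA2 had signals of 5390 and 3528, a mean of 4459 ± 1316 against 16054 ± 1290. Both -Zn arrays lay below both control arrays for each gene. The log2 change, computed as for all values here on the log2(signal + 8) scale, was -2.13 for CA1, 4.36-fold lower, and -1.88 for CA2, 3.67-fold lower. Among the 17059 probe sets above the signal filter these were the 19th and 50th lowest changes, whereas the median of all was -0.02. Groups that did not overlap with -Zn lower were found for 21.0% of all probe sets, so that the count of 2 of 2 is read only as a description. In whole shoots, fewer cells that express a gene and less RNA per cell cannot be told apart.

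For both genes the higher of the -Zn shoot signals was on replicate 1. That array also had the highest actin 3′/5′ signal ratio, a sign of RNA quality, of the 4 (8.57, the others 1.74 to 2.70), and the highest signal of the root marker PYK10 (991, the others 63.3 to 187). The other root marker, EXPA7, had 43.4 on that array, below background, against 77.7 and 87.2 in control shoots and 16.5 on -Zn replicate 2. Their part in the values was not tested. When any 1 of the 4 shoot arrays was omitted, the log2 change lay between -2.47 and -1.78 for CA1 and between -2.18 and -1.57 for CA2.

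In roots of Zn-deficient plants the signals went the other way, and that of CA2 reached the lowered level of the -Zn shoots (mean 4459), not that of control shoots (mean 16054). CA2 had signals of 5941 and 2387 on the -Zn root arrays against 50.2 and 58.03 in control roots, a mean of 4164 ± 2513 (SD, n = 2) against 54.1 ± 5.55. Both -Zn arrays lay far above both controls, and the -Zn arrays differed from each other by more than the controls did. The actin 3′/5′ ratio was also higher on the -Zn root arrays (5.67 and 5.30) than on the control root arrays (3.91 and 4.25), and its part in the root values was not tested. The log2 change was 5.93, or 60.9-fold, the 3rd highest of the 17059 probe sets, and it lay between 5.27 and 6.58 when any 1 of the 4 root arrays was omitted. Under Zn deficiency the root and shoot signals of CA2 overlapped, with a log2 difference of -0.21 for roots minus shoots against -8.02 in control plants.

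CA1 differed in the same direction in roots, but its root signals stayed far below its shoot signals. Its signals were 315 and 81.4 on the -Zn root arrays, 198 ± 165 (SD, n = 2), against 1.83 and 6.38 in control roots, both below background. The geometric mean of the -Zn roots was thus at least 3.06-fold above control roots. The log2 change of 3.84, the 13th highest of all probe sets, moves with the constant of 8 units: it was 1.62 with signals below background set to that level. For both genes the -Zn root signal was higher on replicate 1. The groups did not overlap, with -Zn higher, for 17.6% of all probe sets in roots. Root signals of CA1 stayed below shoot signals under Zn deficiency, with a log2 difference of -4.75 and groups that did not overlap, as for 27.6% of probe sets with roots lower. Whether CA2 transcript adds to the signal of the CA1 probe set in these roots was not tested.

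In Zn-deficient roots the tested transcripts of light capture and CO2 fixation stayed at a few percent of their shoot level or less, unlike CA2. The root signals of CA2 were 133% and 53.5% of the mean -Zn shoot signal of the same probe set, after 0.313% and 0.361% in control plants. Those of CA1 were 6.70% and 1.73%. These percentages also contain the lower mean shoot signals in -Zn: 4459 against 16054 for CA2 and 4694 against 20175 for CA1. For RCA the means were closer, 13991 against 17670. RCA, the rubisco activase, stood at 1.14% and 0.951% in -Zn and at 0.850% and 0.730% in control plants. PRK, the phosphoribulokinase of the Calvin cycle, stood at 0.379% and 0.445%, which are upper limits because its root signals were below background under both media, and LHCB4.1, a light-harvesting protein of photosystem II, at 1.62% and 0.836%. The summed signal of the shoot markers RCA and LHCB4.1 was 305 to 492 in -Zn roots and 279 to 477 in control roots. Of the photorespiration genes, GLYK stood at 369% and 433% in -Zn and at 168% and 206% in control plants, and GLDT at 31.6% and 21.0% against 12.1% and 14.0%, percentages that also contain their lower -Zn shoot signals.

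**Figure D2:**
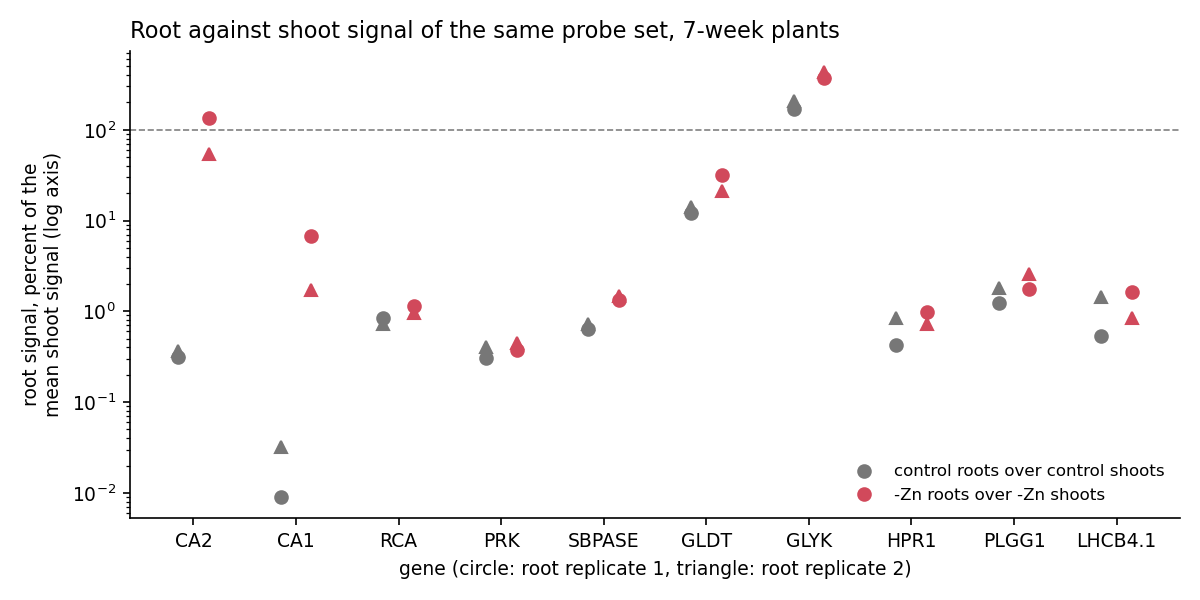
Signal on each root array of the 7-week experiment as a percentage of the mean shoot signal of the same probe set under the same medium (log axis), for CA2, CA1 and the tested genes of the CO2 fixation, photorespiration and shoot marker lists. Grey points are control plants, red points -Zn plants, circles replicate 1 and triangles replicate 2. CA2 goes from 0.313% and 0.361% to 133% and 53.5%, whereas RCA, PRK, SBPASE, HPR1, PLGG1 and LHCB4.1 stay below 3% on every root array.

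The combination of a lower shoot and a higher root signal under Zn deficiency was found for 639 probe sets, or 3.75%, when only groups that did not overlap were asked for. It was found for 9 probe sets, or 0.0528%, when both changes had also to exceed 1 on the log2 scale. CA2 and CA1 were 2 of these 9 with distances between the root and the shoot change of 7.80 and 5.96. The distance of CA1 rests on control root signals below background. With signals below background set to it, the distances were 7.97 for CA2, ranked 1 of 17059, and 3.74 for CA1, ranked 4, against 3.75 for AT4G37240. This pattern was a reason for choosing CA2, and the distances are a description. The other 7, named after their values were seen, were AT4G37240, AT3G21670 (NPF6.4, of the nitrate and peptide transporter family), AT3G18870, AT4G33660, RR16 (a response regulator of cytokinin signalling), CHIL (a chalcone isomerase-like protein of flavonoid synthesis) and 1 probe set with no name here. Their root changes lay between 1.14 and 2.67 and their shoot changes between -1.70 and -1.02. With signals set to background the root change was 2.71 for AT4G37240 but between 0 and 0.46 for the other 6.

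**Figure D3:**
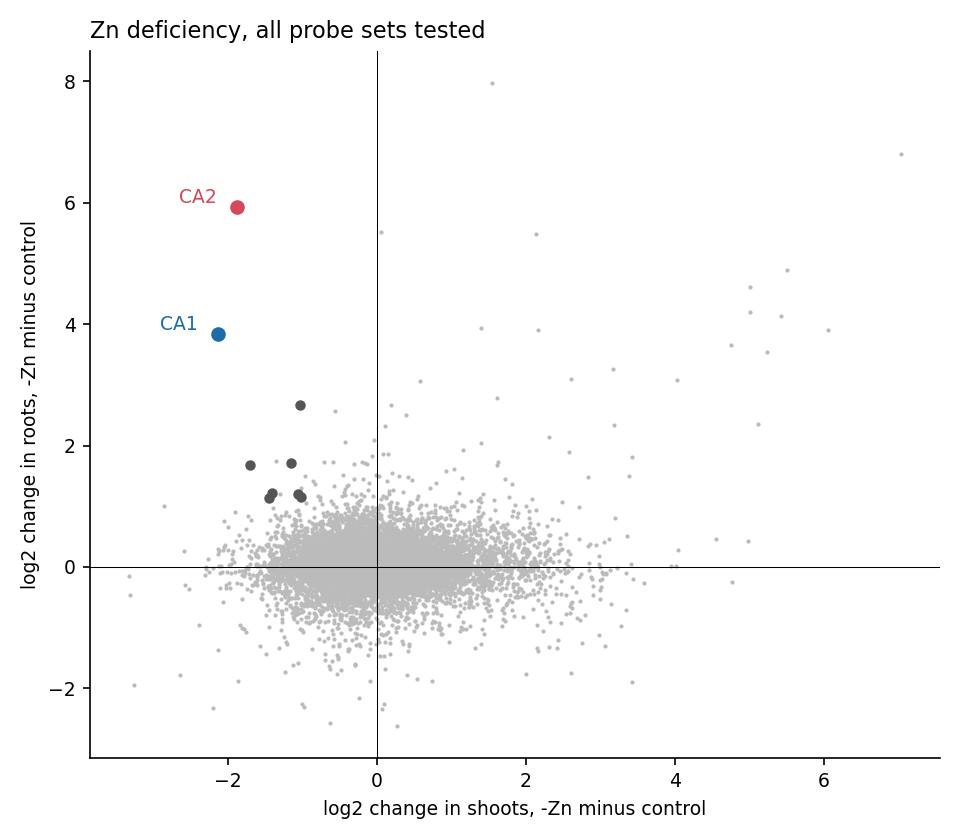
Log2 change under Zn deficiency in shoots (x axis) and in roots (y axis) for the 17059 probe sets tested (grey). CA1 (blue), CA2 (red) and the other 7 probe sets lower in shoots and higher in roots by over 1 on the log2 scale with groups that do not overlap (dark grey) lie in the upper left, CA2 at -1.88 and 5.93 and CA1 at -2.13 and 3.84.

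In the hma2 hma4 mutant, grown with Zn in the medium, neither gene passed the test in shoots or in roots. CA2 had shoot signals of 10926 and 12552 against 16635 and 16563 in WT, a mean of 11739 ± 1150 (SD, n = 2) against 16599 ± 50.5. Both mutant arrays lay below both WT arrays, as for 21.1% of all probe sets. The log2 change was -0.50 (SE 0.680, 95% interval -2.005 to 0.999, limma adjusted p = 0.885). CA1 had shoot signals of 16245 and 17723 against 19789 and 19114, a mean of 16984 ± 1045 against 19451 ± 477. Both mutant arrays again lay below both WT arrays, and the log2 change was -0.20 (SE 0.595, 95% interval -1.51 to 1.12, limma adjusted p = 0.962). In this comparison 0.299% of the probe sets were called, 51 of 17059.

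The fit shares its spread over all 4 groups, and root signals scattered below background. In a fit of the 4 shoot arrays alone the change of CA2 had a standard error of 0.126 and a 95% interval of -0.79 to -0.22, and that of CA1 a 95% interval of -0.47 to 0.07. CA2 did not pass there either (limma adjusted p = 0.271), nor with signals below background set to it (adjusted p = 0.230). Across 10 other settings the log2 change of CA2 lay between -0.50 and -0.41, and that of CA1 between -0.20 and -0.14.

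In mutant roots both genes were below background. They passed the signal filter only through their shoot signals, so the root tests cannot decide whether they changed there. CA1 had signals of 4.07 and 3.78 and CA2 of 4.09 and 32.8. In WT roots 1 of 2 arrays, replicate 1, exceeded background for each gene (57.2 for CA1, 66.0 for CA2), and the groups overlapped. The log2 changes were -1.11 for CA1 (SE 0.595, 95% interval -2.42 to 0.21, limma adjusted p = 1.00) and -0.47 for CA2 (SE 0.680, 95% interval -1.97 to 1.03, adjusted p = 1.00), in a comparison with 0.00586% of probe sets called. They rest on the choice of WT root array: for CA1 the change was 0.23 without WT root replicate 1 and -2.45 without WT root replicate 2. Each of these fits leaves 1 WT root array. For CA2 it was 0.79 without WT root replicate 1. The CA2 signals of 5941 and 2387 in -Zn roots had no counterpart on either mutant root array.

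**Figure D4:**
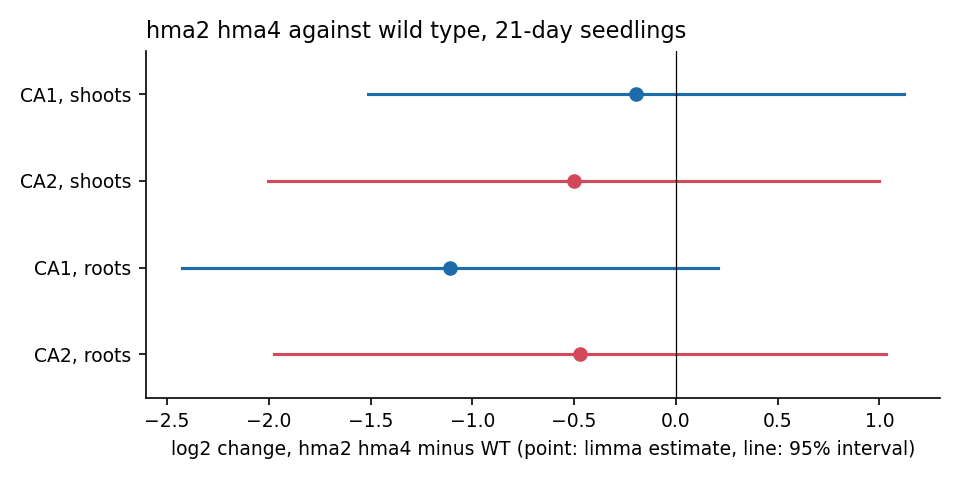
Log2 change of CA1 (blue) and CA2 (red) in hma2 hma4 against WT shoots and roots of 21-day seedlings. Points are limma estimates and lines 95% intervals. All 4 estimates are negative, from -1.11 to -0.20, and all 4 intervals include 0. The root estimates come from signals mostly below background.

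Whether the mutant change differed between tissues cannot be decided here, because the root signals were near or below background. The genotype by tissue term, root change minus shoot change, was 0.03 for CA2 (SE 0.961, 95% interval -2.09 to 2.15, limma adjusted p = 0.998) and -0.91 for CA1 (SE 0.842, 95% interval -2.77 to 0.95, limma adjusted p = 0.943), with 0.0469% of probe sets called. For CA1 it was -2.25 without WT root replicate 2 and 0.43 without WT root replicate 1, and it contains the same root signals near or below background. In the same shoots ZIP9, a Zn transporter of the Zn deficiency core list, rose from signals of 58.6 and 32.6 to 554 and 212, a log2 change of 2.76 with a limma adjusted p of 0.0313. It was the only 1 of 10 loci of that list that could be tested.

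Both genes were far lower in roots than in shoots of the 21-day seedlings. They were chosen as enzymes of the leaf and passed the signal filter only through their shoots. This direction was thus set by the choice, and the p-values and ranks are no independent evidence for it. In WT the log2 difference of roots minus shoots was -9.56 for CA1 (SE 0.595, limma adjusted p = 1.2e-07) and -9.07 for CA2 (SE 0.680, limma adjusted p = 5.52e-07). These were the lowest and the 3rd lowest of the 17059 differences, in a comparison with 21.6% of probe sets called lower in roots. In the mutant the differences were -10.48 for CA1 (limma adjusted p = 5.8e-08) and -9.04 for CA2 (adjusted p = 5.63e-07), again with 21.6% called lower in roots. The size of such differences depends on signals below background. Against the background level, mutant shoots were at least 325-fold above roots for CA1 and at least 224-fold for CA2. In 7-week control plants shoots were at least 382-fold above roots for CA1, and the groups did not overlap for either gene, as for 30.9% of probe sets with roots lower.

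Ordered by their means, the 8 groups ran for CA1 from 7-week control shoots (20175) through 21-day WT shoots (19451) and mutant shoots (16984) to -Zn shoots (4694) and -Zn roots (198), with the other 3 root groups at 29.7 or less. The arrays of 7-week control shoots overlapped with those of both 21-day shoot groups. For CA2 the order was 21-day WT shoots (16599), 7-week control shoots (16054), mutant shoots (11739), -Zn shoots (4459), -Zn roots (4164), and the other 3 root groups at 54.1 or less. The first pair overlapped, and so did -Zn shoots and -Zn roots, while mutant shoots lay apart from the groups on either side.

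Of the 19 loci on the carbonic anhydrase family list, the 17 besides CA1 and CA2, as well as the 4 PEP carboxylases, were not paired with a probe set by the annotation used and were not analysed here. That annotation does not list 8794 probe sets, so genes it leaves unpaired may still be measured on the array. The neighbouring steps of carbon metabolism were covered by few genes. On the CO2 fixation list 3 of 20 loci were tested. In -Zn shoots all 3 had negative log2 changes with a median of -0.66, against -0.02 over all probe sets, and none passed (0.920% of all probe sets were called): SBPASE, the sedoheptulose-bisphosphatase, had -0.89 (limma adjusted p = 0.207) and PRK had -0.66 (limma adjusted p = 0.236). SBPASE had signals of 6191 and 4001 against 11595 and 7352 in controls. In -Zn roots the median of the 3 was 0.06, with PRK at -0.34 and SBPASE at 0.13, and none passed (0.106% of all probe sets were called). In the mutant their medians were -0.02 in shoots, with PRK at 0.04 and SBPASE at -0.02, and -0.19 in roots, with SBPASE and PRK at -0.19 each, and none passed.

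On the photorespiration list 4 of 14 loci were tested, and again all 4 were negative in -Zn shoots, with a median of -0.72 and none past the threshold. GLDT, the T protein of glycine decarboxylase, stood at -0.99 (limma adjusted p = 0.202) and PLGG1, a plastid glycolate and glycerate transporter, at -0.73 (limma adjusted p = 0.241). In -Zn roots the median of the 4 was -0.11 and none passed. The extreme members there were GLYK, the glycerate kinase, at 0.50 and PLGG1 at -0.20. GLYK signals were 5231 and 6134 in -Zn roots against 3610 and 4429 in control roots, and 1663 and 1169 in -Zn shoots against 2472 and 1836 in control shoots, so that its groups did not overlap in either tissue. The medians in the mutant were -0.08 in shoots, led by PLGG1 (-0.16) and GLDT (-0.08), and 0.18 in roots, led by PLGG1 (0.57) and GLYK (0.34). None of these passed. In 21-day WT seedlings all 3 CO2 fixation genes (median -6.50) and all 4 photorespiration genes (median -4.55) were lower in roots than in shoots and passed, as did 21.6% of all probe sets.

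On the list of CO2 and stomata genes 5 of 17 loci were tested and none passed under Zn deficiency or in the mutant, with medians of -0.03 in -Zn shoots, -0.14 in -Zn roots, 0.02 in mutant shoots and -0.20 in mutant roots. RHC1, a transporter that acts in the stomatal response to CO2, had log2 changes of -0.68 in -Zn shoots, 0.31 in -Zn roots and -0.29 in mutant roots. CBC1, a protein kinase of the same response, had -0.52, -0.47 and, in mutant shoots, 0.26. CRSP, a secreted protease of stomatal development, had -0.27 in mutant roots, and PATROL1 had -0.12 in mutant shoots. The guard cell markers GC1 and FAMA, 2 of 6 loci, had log2 changes of 0.42 and 0.08 in -Zn shoots and of 0.24 and -0.44 in mutant shoots. Neither passed, and the -Zn shoot signals of FAMA (202 and 74.7) lay on either side of its control shoot signals (126 and 107). In roots GC1 and FAMA had 0.60 and 0.07 under -Zn and -0.52 and 0.60 in the mutant.

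Of the list of Zn enzymes only CCS, the chaperone that inserts copper into Cu/Zn superoxide dismutase, was tested. It had log2 changes of -1.87 in -Zn shoots, -1.88 in -Zn roots, 0.71 in mutant shoots and 0.09 in mutant roots, and none passed (limma adjusted p from 0.0876 to 1.00). Its control shoot signals were 2693 and 268 and its -Zn shoot signals 275 and 190, so that control replicate 2 overlapped with the -Zn arrays. ZIP9 rose in -Zn shoots by 5.01 (limma adjusted p = 0.000123) and in -Zn roots by 4.21 (adjusted p = 0.00048), and had 0.18 in mutant roots. The reference genes SAND and TIP41 had changes between -0.09 and 0.27 in these 4 comparisons and did not pass. The root markers EXPA7 and PYK10 did not pass in any of the 4, with changes between -1.35 and 1.68.

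The patterns of the 2 genes over the 16 arrays were compared with those of 11373 probe sets whose mean signal exceeded the median, 5922 of them paired with 1 gene. These correlations are a description over arrays that share their tissues and experiments. Over all 16 arrays the Pearson correlation between CA1 and CA2 was 0.938, and 882 probe sets exceeded 0.9 with CA1 but only 28 with CA2. The named genes most like CA1 were AT4G10000, AT1G20810, AT3G53470, NdhL, a subunit of the plastid NDH complex, and AT1G64355, with r from 0.974 to 0.978. Those most like CA2 were AT5G08520, AT1G05030, AT1G60010, the plastid gene matK and AT1G71970, with r from 0.927 to 0.966. These 2 sets of 5 had no gene in common.

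After subtracting the mean of each experiment and tissue, which leaves the differences due to medium, genotype and replicate, CA1 and CA2 were each other's closest probe set of all 11373, with r = 0.937. The centred values contain the -Zn changes for which CA2 was chosen, and control root signals of CA1 below background. The closeness is therefore a description and no independent evidence of a shared response. LSMT-L, a lysine methyltransferase-like protein, was the named gene most like either, with r of 0.927 with CA1 and 0.895 with CA2. It had signals of 40.4 and 83.6 in -Zn roots against 11.3 and 12.8 in control roots, so that only 1 of these 4 arrays exceeded background, and a mean of 279 ± 27.6 against 424 ± 30.4 in shoots. Its log2 changes of 1.73 in roots (limma adjusted p = 0.470) and -0.59 in shoots (adjusted p = 0.448) did not pass. The others were AT3G15690, AT3G55760, AT5G28750 and AT2G30695 for CA1, with r from 0.827 to 0.881. For CA2 they were NdhS of the plastid NDH complex, PORB, a protochlorophyllide oxidoreductase of chlorophyll synthesis, AT3G55760 and AT5G28750, with r from 0.834 to 0.857. PORB had signals of 40.0 and 50.4 in -Zn roots against 6.87 and 10.1 in control roots, all below background.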

How the data were processed

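Total RNA was labelled with biotin and measured on 16 one-colour Affymetrix ATH1 arrays, per the labels. The authors deposited log2 values of signals computed with MAS5, per the submitters' processing notes. Its version and settings are not named there. The deposited values show a mean of 500.04 to 500.05 signal units per array after trimming 2% at either end, and 2413 values at a log2 of exactly 0. Scanner files were not used here, so probe-level steps and cross-hybridisation were not examined, and with every array scaled alike a shift of all transcripts together is invisible.

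The log was undone, a constant of 8 units (about the 10th percentile) was added and log2 was taken again, which understates the change of dim genes. The 64 control probe sets were left out, and 17059 probe sets with a mean above the 25th percentile of the fit were kept. Each experiment had 1 limma 3.58.1 fit of its 8 arrays (R 4.3.3, eBayes with trend), with Benjamini-Hochberg adjustment over all probe sets and a threshold of 0.05. With 2 arrays against 2 an exact two-sided permutation test of 1 gene cannot go below p = 0.333 and was not used. A fold given as "at least" sets the geometric mean of the brighter group against the background level. The fits were checked on simulated data. Alternatives were quantile normalization, median centring, 1 or 58 units added (58 is the 30th percentile), no filter or one at the 50th percentile, only the 4 arrays compared, all 16 arrays, the replicate number as a block, and each array left out. An alternative with signals below background set to it, and 1 with crossed replicate numbers, were chosen after seeing the data.

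The pairing of the 2 probe sets with CA1 and CA2 came with the choice of these genes, since the platform annotation used here lists neither. It pairs 13513 probe sets with 1 gene, 503 with several and does not list 8794. Of the first, 13436 matched the RefSeq TAIR10.1 table, used for names only. No sequences are printed. The members, gene lists and tests were chosen with earlier results of these data known. Genes were named by rule: list members with a probe set, of the larger lists the 2 with the largest change in each comparison, and the 5 named genes most like CA1 or CA2 by Pearson correlation, raw and centred. For a list gene with several probe sets, the brightest was used.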

Additional observations from a re-analysis of the deposited data

Results flagged for a closer look

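The responses of both genes to Zn deficiency went opposite ways in the tissues, every -Zn shoot array lying below and every -Zn root array above its controls. The root change minus the shoot change was 7.80 on the log2 scale for CA2 and 5.96 for CA1. With signals below background set to it, the values were 7.97 and 3.74. This difference was not tested, since CA2 was chosen for it. Among the other genes named here the same arrangement of arrays, also not tested as a difference, was found for AT4G37240 (3.70), AT3G21670 (3.39), AT3G18870 (2.86), AT4G33660 (2.63), RR16 (2.59) and CHIL (2.26), which were named because they showed it. With signals set to background, AT4G37240 kept a value of 3.75 and those of the other 5 lay between 1.31 and 2.07. Over all probe sets the arrangement was found for 3.75%. Of the 17 genes named for a pattern like that of CA1 or CA2, which these same arrays defined, 9 showed it: LSMT-L (2.32), AT3G15690 (1.22), AT3G55760 (1.06), AT5G28750 (0.97), AT1G20810 (1.42), AT3G53470 (1.13), AT1G05030 (0.44), AT1G60010 (0.80) and matK (0.81). Of 21 list genes, 2 showed it, GLYK (1.11) and RHC1 (0.99). In the mutant, AT5G08520 had both shoot arrays above and both root arrays below WT, with a difference of -0.42 that was not called. Groups of 2 arrays are too small for a check of outlying arrays.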

How the results depend on the processing

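With 1 array left out, 39 of 48 values of the tested log2 changes of CA1 and CA2 kept direction and call, as did 92 of 96 under other settings. Of the remaining values with 1 array left out, 7 changed direction and the rest gained a call. Those fits leave 1 array in a group, so the gained calls are not read as results. Under the other settings no tested change gained or lost a call. In mutant roots, leaving out 1 array gave -2.45 to 0.23 for CA1 and -1.74 to 0.79 for CA2. For the genotype by tissue term it gave -2.25 to 0.43 for CA1 and -1.23 to 1.30 for CA2. The term turned to 0.13 for CA1 with signals below background set to it, and for CA2 to -0.067 with quantile normalization, -0.012 with median centring and -0.087 with 1 unit added. These root signals lie at or below background, which limits what they can show. With only the 4 root arrays compared, both genes fell below the filter and gave no mutant value.

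In 7-week plants the log2 change of CA1 in -Zn roots was 1.88 with 58 units added and 1.62 with signals below background set to it. The control difference of roots minus shoots was -12.09, -8.33 and -8.58 for CA1 with 1 unit, 58 units and background, and -7.69, -8.42 and -7.17 for CA2 with quantile normalization, median centring and 58 units. The difference of CA2 in -Zn plants was 0.040 with quantile normalization and -0.87 to 0.45 with 1 array left out.

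The counts of called probe sets moved more. For mutant shoots 51 became 19 without a filter, 17 with 4 arrays, 14 with 16 arrays and 15 to 179 with 1 array left out (15 without WT replicate 1, 152 and 179 without mutant replicate 1 or 2). For mutant roots 1 became 4 with quantile normalization, 3 with median centring, 6 with 58 units, 4 with 4 arrays, 2 with 16 arrays, 2 with the replicate block, 0 with the filter at the 50th percentile (451 at an unadjusted limma p under 0.05) and 0 to 6 with 1 array left out (0 without mutant replicate 1, with 599 unadjusted, and 6 without WT replicate 2). The genotype by tissue count of 8 became 5 with 16 arrays, 5 with signals set to background and 6 to 28 (18 and 28 without mutant shoot replicate 1 or 2). For -Zn shoots 157 became 95 with quantile normalization, 333 with 58 units, 33 without a filter, 16 with 4 arrays, 1440 with 16 arrays, 281 with the replicate block, 278 with signals set to background and 17 to 331 (17 and 331 without control replicate 1 or 2, 41 and 66 without -Zn replicate 1 or 2). For -Zn roots 18 became 33 with 16 arrays and 12 to 29 (29 without -Zn replicate 2). The cause of these shifts was not tested.

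Equal replicate numbers were not taken as pairs, because the correlations of their deviations did not exceed 0.1 for every pair of groups: they lay between -0.12 and 0.16 at 7 weeks, between -0.02 and 0.18 at 21 days, and above 0.1 in 5 of 12 pairs of groups. The replicate block changed no call of CA1 or CA2. With the numbers of the -Zn root arrays crossed, 17 probe sets were called in -Zn roots.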

Other observations

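The roots of 21-day seedlings carried more signal of the leaf markers than those of 7-week plants. The summed signal of RCA and LHCB4.1 was 1081 to 1118 on the 4 root arrays of the 21-day experiment and 279 to 492 on the 4 of the 7-week experiment. The highest CA2 signal on the former was 66.0, and the lowest on the -Zn roots of the latter was 2387. Age and culture differ between the experiments and cannot be told apart, and the actin 3′/5′ ratio also separates them, with 1.74 to 8.57 at 7 weeks and 17.3 to 30.3 at 21 days.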
